A study of Mus musculus with 8 samples.

Results

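The collagen genes of the mouse were followed in sorted enteric neurons of Emb knockdown and WT colon. Members were the genes whose symbol consists of Col, a number, the letter a and a number, and 44 of the 55414 genes in the count table met that rule. All 44 were annotated as protein coding in GENCODE release M21. By the structures their chains build they were divided into 11 fibrillar collagens, 6 basement membrane collagens (the type IV chains) and 27 other collagens.

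The 8 libraries came from colons of mice aged 4 weeks, 4 from Emb knockdown mice and 4 from WT mice. Emb encodes the immunoglobulin superfamily protein embigin of the cell membrane, and the study's title places its knockdown in the development of the gut's nerve cells. In both genotypes the cells had been freed with enzymes, stained for CD24 and CD56 and sorted into lysis buffer, about 250 to a tube, before Smart-seq amplification. The sources used here do not say how Emb was knocked down or whether each tube stands for 1 mouse. The p-values therefore describe variation among tubes, which may be partly technical.

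Collagens are secreted as procollagen chains that wind into a rope-like helix, are trimmed outside the cell and assemble into fibrils, sheets or filaments. Fibrillar collagens give tissue its tensile strength, type IV collagen forms the sheet at the core of basement membranes, and the remaining types coat fibrils, anchor epithelia, build fine filaments or stay on the cell surface. In the gut wall most collagen is made by fibroblasts, smooth muscle and other mesenchymal cells, and the enteric ganglia are surrounded by a basement membrane.

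Depth differed between genotypes. Total counts ranged from 2024372 to 2712754 in Emb knockdown and from 698930 to 954191 in WT, and outside ribosomal RNA from 1331058 to 1576768 in Emb knockdown and from 598240 to 856205 in WT. The small-subunit ribosomal RNA gene Rn18s-rs5 took 29.2% to 42.5% of the counts in Emb knockdown and 3.55% to 13.0% in WT. Spearman correlations across genes between libraries were low, at 0.428 to 0.487 within Emb knockdown, 0.351 to 0.390 within WT and 0.281 to 0.401 across genotypes. Emb itself had 3.33, 13.3, 1.62 and 3.13 CPM (counts scaled to a common library size with TMM factors) in Emb knockdown libraries 1 to 4, against 5.15, 6.90, 16.7 and 22.5 CPM in WT libraries 1 to 4, and Emb knockdown 2 lay within the WT range (log2 fold change -1.24 ± 0.82 SE, adjusted p = 0.529 by edgeR's quasi-likelihood test). Of 8 neuron markers, 1 lay above 2 times the background described below in all 8 libraries. A single low library is enough to fail a marker, so this count does not test the neuronal label.

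Collagen transcripts were a minor part of every library. The 44 genes held 3865, 8531, 3668 and 2634 counts in Emb knockdown libraries 1 to 4, against 1708, 1794, 2077 and 982 counts in WT libraries 1 to 4. Outside ribosomal RNA this was 0.198% to 0.573% of the counts in Emb knockdown and 0.164% to 0.246% in WT, so the ranges overlapped and Emb knockdown 2 held the highest share.

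In WT, most members lay close to the background of these libraries, and fewer did in Emb knockdown. That background was read from 1505 chemosensory receptor genes (olfactory, vomeronasal, trace amine): the counts per exonic kilobase of a collagen were divided, library by library, by the same quantity for the receptor genes. Ranked by mean CPM per exonic kilobase over both genotypes, the levels were led by Col5a1, Col16a1 (through 1 library, Emb knockdown 2) and Col27a1, and Col10a1 came last. In the median library, 10 of 44 members stood at 5 times the background or more in Emb knockdown and 5 in WT, while 10 stood below 2 times in Emb knockdown and 26 in WT. Only 6 members exceeded 2 times the background in every one of the 8 libraries: Col1a1, Col5a1 and Col27a1 among the fibrillar collagens, Col4a1 of the basement membrane, and Col6a1 and Col16a1 among the others. The median member stood at 3.10 times the background in Emb knockdown and 1.69 times in WT. Protein-coding genes as a whole stood at 1.62 times in Emb knockdown and 1.01 times in WT by the same measure, so the level over background was higher in Emb knockdown for the genome at large and not for collagens alone; its part in the values that follow was not tested.

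**Figure D1:**
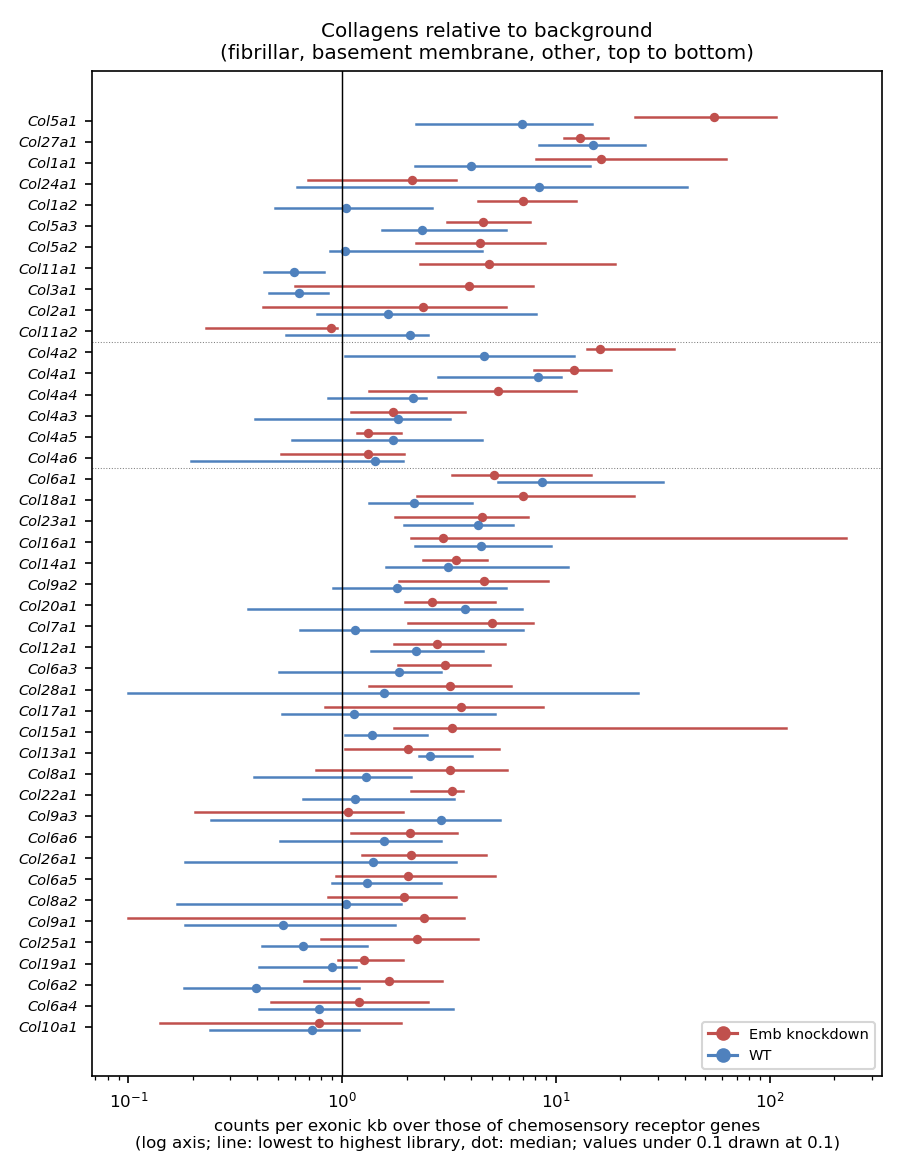
Counts per exonic kilobase of each of the 44 collagens, as a multiple of those of 1505 chemosensory receptor genes in the same library (log axis), in Emb knockdown (red) and WT (blue); lines run from the lowest to the highest of 4 libraries and dots mark the median. Col5a1 has the highest Emb knockdown median, 54.7, and Col27a1 the highest WT median, 14.9.

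The collagen that led the counts differed between libraries. Col5a1, the chain that starts fibril assembly, led in Emb knockdown 1, 3 and 4, with 29.6%, 30.6% and 12.7% of the collagen counts. In Emb knockdown 2 it was Col16a1, with 32.5%. Col27a1 led WT 1 and WT 4 with 26.3% and 22.6%, and Col24a1 led WT 2 and WT 3 with 22.3% and 11.3%. Col27a1 and Col24a1 belong to a small branch of fibrillar collagens with shortened, interrupted helices.

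Against WT, no collagen passed the adjusted p in Emb knockdown. By edgeR's quasi-likelihood test with Benjamini-Hochberg adjustment over the 11353 genes tested, 0 of the 41 collagens that passed the filter on low counts had an adjusted p under 0.05, and 0.0% of all genes did; the lowest adjusted p was 0.275 among collagens and 0.0719 among all genes. At an unadjusted p under 0.05, 5 of 41 collagens were higher in Emb knockdown, where the share of all genes was 8.64%, and 2 of 41 were lower, where it was 4.64%. Both counts lie near those backgrounds. Scaling moved these counts with those of all genes: library totals alone gave 2 higher and 6 lower collagens, against 3.69% and 13.5% of all genes, and receptor-gene scaling gave 10 and 1, against 18.1% and 1.24%. With TMM factors, the members higher in Emb knockdown were Col11a1, Col1a2, Col5a1, Col3a1 and Col15a1, and those lower were Col24a1 and Col11a2. With library totals alone the 2 higher ones were Col11a1 and Col15a1. Col1a2, Col5a1 and Col3a1 then had edgeR unadjusted p of 0.0552, 0.0548 and 0.0930. All 5 remained among the higher ones with receptor scaling. Limma voom passed 0 collagens. The DESeq2 Wald test passed 4 (Col11a1, Col5a1 and Col1a2 higher, Col24a1 lower). Of all 11353 genes 4.27% passed as higher and 1.74% as lower, 6.02% in all, with genes that DESeq2 gave no adjusted p counted as not passing. EdgeR with low counts kept in passed 4 of 44 (Col11a1, Col15a1 and Col16a1 higher, Col24a1 lower), where 1.88% of the 48530 genes with any count passed. Those shares are not like for like, because 41 of the 44 collagens had passed the filter but only 11353 of all genes had.

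The filter left out Col8a2, Col9a3 and Col10a1. It asked for about 6.715 CPM of the unscaled total in at least 4 libraries, and 21 of the 41 tested collagens exceeded that in all 8. In TMM-normalised CPM, 2 of the 44 were higher in every Emb knockdown library than in any WT library, against 4.03% of all genes tested. They were Col11a1 and Col1a2, and over library totals alone Col1a2 overlapped. None of the 44 was lower in every Emb knockdown library in TMM-normalised CPM, against 4.25% of all genes.

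Within each class members lay on both sides of 0. Among the 11 fibrillar collagens, all tested, 7 had log2 fold changes above 0 and 4 below, with a median of 0.79; 4 were higher and 2 lower at an unadjusted p under 0.05. The 6 type IV chains, all tested, split 3 and 3 with a median of -0.18, and 0 reached an unadjusted p of 0.05. Of the 27 other collagens 24 were tested, 14 above 0 and 10 below, with a median of 0.16, and 1 was higher at an unadjusted p under 0.05. The median of all genes tested was 0.04. It moved with the scaling, to -0.59 with library totals alone and 0.64 with libraries scaled to the receptor genes, and the fibrillar median moved with it, to 0.27 and 1.42. The type IV median was -0.78 and 0.48 under those scalings and that of the others -0.50 and 0.76. Fibrillar collagens lay above the median of all genes under each scaling and type IV chains below it. Rescaling shifts all genes by nearly the same amount, so that order could hardly change and its persistence carries no weight. With WT 1 left out, the type IV median was 0.28, against 0.08 for all genes. Leaving out any other library kept the type IV median below that of all genes. With libraries thinned to an equal count only 4 of the 6 type IV chains were tested, without Col4a5 and Col4a6, and their median was 0.45, against 0.00 for all genes.

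**Figure D2:**
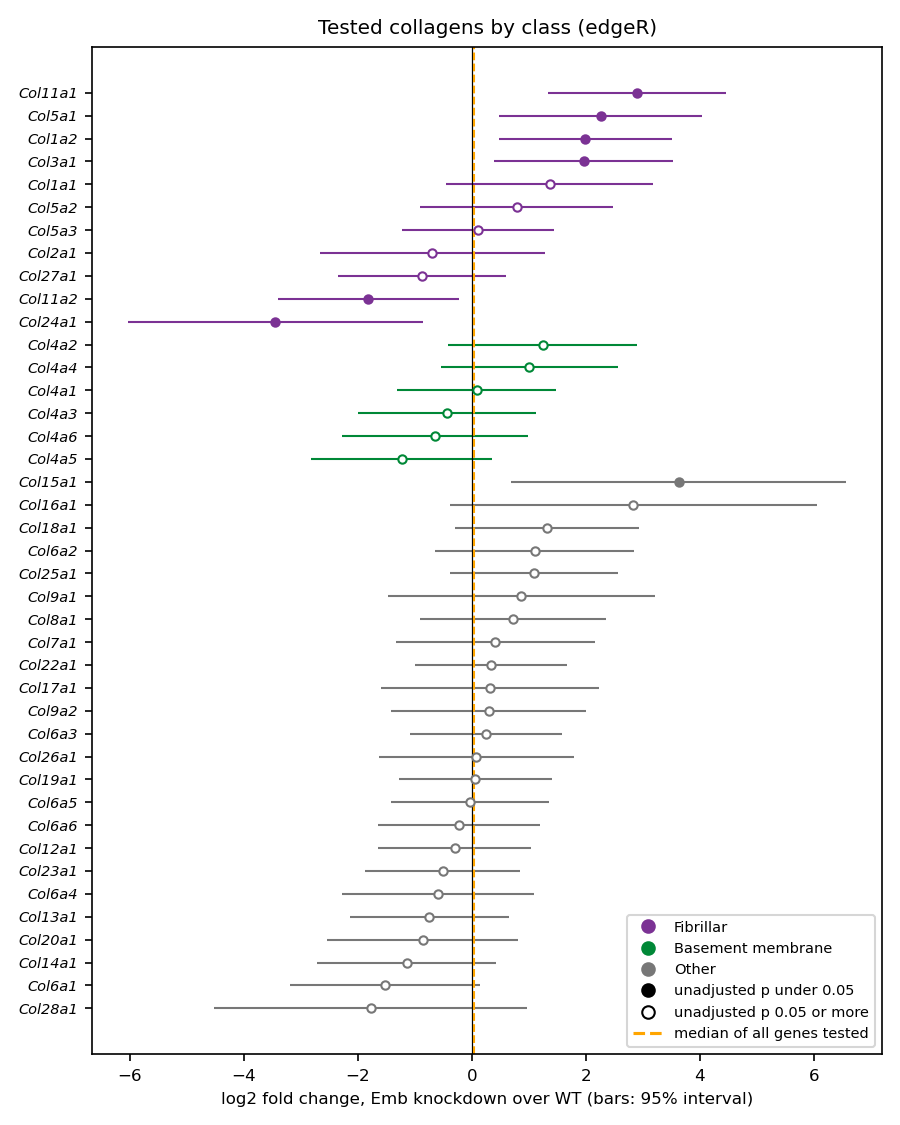
Log2 fold change of Emb knockdown over WT for the 41 tested collagens, by class, with 95% intervals from edgeR; filled points have an unadjusted p under 0.05 and the dashed line is the median of all genes tested, 0.04. Fibrillar members reach from -3.45 (Col24a1) to 2.90 (Col11a1), and the 6 type IV chains stay between -1.24 and 1.24, while with library totals alone the median of all genes was -0.59.

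In TMM-normalised CPM, the summed levels of each class overlapped between genotypes. Fibrillar collagens summed to 1627, 1171, 1183 and 788 CPM in Emb knockdown libraries 1 to 4, against 1015, 1062, 672 and 572 CPM in WT libraries 1 to 4. The log2 ratio of the means was 0.52, -0.12 with library totals alone and 1.18 with receptor scaling. Type IV chains summed to 416, 396, 267 and 227 CPM in Emb knockdown and to 291, 194, 157 and 322 CPM in WT, a log2 ratio of 0.44, -0.19 with library totals alone and 1.11 with receptor scaling. The other collagens summed to 532, 2956, 531 and 635 CPM in Emb knockdown, against 892, 806, 751 and 486 CPM in WT. Here the log2 ratio of 0.67 came from Emb knockdown 2 and was -0.36 without that library. Set over the receptor-gene background instead, fibrillar sums lay narrowly apart, at 7.22 to 18.7 times in Emb knockdown and 3.69 to 7.01 times in WT. Over that background, protein-coding genes as a whole stood at 1.62 times in Emb knockdown and 1.01 times in WT. Type IV sums were barely apart on that scale, the lowest Emb knockdown library standing at 4.36 times and the highest WT library at 4.34 times. The sums of the others overlapped, at 2.21 to 15.8 times in Emb knockdown and 1.66 to 2.81 times in WT.

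A pair of genes, Col15a1 and Col16a1, accounted for the Emb knockdown 2 value of the other class. Col16a1 made up 32.5% and Col15a1 16.0% of the collagen counts in that library. As shares of collagen counts, fibrillar collagens took 63.2%, 25.9%, 59.7% and 47.8% in Emb knockdown and 46.2%, 51.5%, 42.5% and 41.4% in WT. With Col15a1 and Col16a1 set aside, a choice made after seeing the data, fibrillar shares were 63.7%, 50.3%, 61.6% and 48.8% in Emb knockdown, against 47.6%, 52.4%, 45.7% and 43.5% in WT. Those ranges still overlapped, through WT 2.

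**Figure D3:**
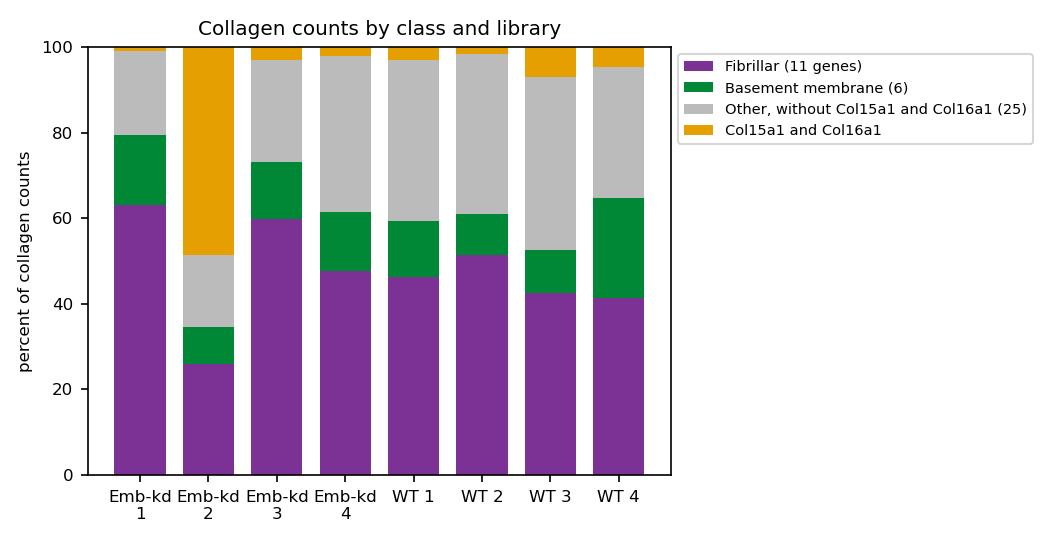
Percent of the collagen counts of each library held by fibrillar collagens, basement membrane collagens, Col15a1 with Col16a1, and the 25 remaining collagens, with the 4 Emb knockdown (Emb-kd) libraries left of the 4 WT libraries. Fibrillar collagens take 25.9% to 63.2% in Emb knockdown and 41.4% to 51.5% in WT, and the lowest share is that of Emb knockdown 2, where Col16a1 alone takes 32.5%.

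Of the fibrillar collagens that form the bulk of fibrils, type I chains were higher in Emb knockdown in mean level. Col1a2 (ENSMUSG00000029661), the alpha-2 chain of type I collagen, had 64.0, 148, 121 and 57.0 CPM in Emb knockdown, against 10.3, 48.3, 15.2 and 23.9 CPM in WT. Every Emb knockdown library lay above every WT library in these CPM, the closest being Emb knockdown 4 and WT 2. Over library totals alone the groups overlapped, with Emb knockdown 1 and 4 below WT 2. A log2 fold change of 1.99 ± 0.69 was fitted (SE, n = 4 each; 95% interval 0.48 to 3.51; edgeR unadjusted p = 0.0142, adjusted p = 0.311), and the DESeq2 adjusted p was 0.0257 in a range of 0.0257 to 0.536 over the alternatives. The log2 fold change of Col1a2 was 1.45 with library totals alone and 2.56 with receptor scaling. Its median stood at 6.99 times the background in Emb knockdown and at 1.04 times in WT, where single libraries ranged from 0.487 to 2.64 times.

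Col1a1, the partner chain, is given here for that partnership and was chosen after its values were seen. It had 344, 66.8, 65.4 and 151 CPM in Emb knockdown and 24.4, 139, 35.0 and 44.97 CPM in WT, with WT 2 above 2 of the Emb knockdown libraries. Its log2 fold change was 1.36 ± 0.83 (edgeR adjusted p = 0.495). Type I collagen is mostly built with more alpha-1 than alpha-2 chains, and per exonic kilobase the ratio of Col1a1 to Col1a2 was 10.2, 0.855, 1.03 and 5.01 in Emb knockdown against 4.50, 5.45, 4.35 and 3.56 in WT. The ratio thus varied more among Emb knockdown libraries than among WT libraries, on both sides of the WT range.

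Col3a1 (ENSMUSG00000026043), the type III chain of pliable tissues such as gut and vessel walls, had 64.6, 48.8, 31.9 and 6.27 CPM in Emb knockdown, against 10.3, 9.20, 6.85 and 12.6 CPM in WT. The first 3 Emb knockdown libraries lay above WT and the last lay below it. Col3a1 had a log2 fold change of 1.96 ± 0.72 (edgeR unadjusted p = 0.0190, adjusted p = 0.312), 1.28 with library totals alone and 2.65 with receptor scaling. In WT, Col3a1 stood at 0.456 to 0.857 times the background, so no level above background was detectable there. Its exons share 141 bases, 1.44% of their length, with the same-strand gene Gm47302, and how the authors' counting treated shared bases is not given.

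The chains that start and limit fibril growth showed the highest level and the largest positive difference among fibrillar members. Col5a1 (ENSMUSG00000026837), the main chain of type V collagen, had 761, 418, 607 and 209 CPM in Emb knockdown, against 212, 27.6, 82.2 and 95.6 CPM in WT. Emb knockdown 1 to 3 lay above all WT libraries, and Emb knockdown 4 lay just under WT 1. The log2 fold change was 2.26 ± 0.82 (95% interval 0.47 to 4.04; edgeR unadjusted p = 0.0175, adjusted p = 0.311), and the DESeq2 adjusted p was 0.0217 in a range of 0.0217 to 0.560. With library totals alone the log2 fold change was 1.62, and with receptor scaling 2.96. Col5a1 stood at 23.3 to 106 times the background in Emb knockdown and 2.21 to 14.7 times in WT. Opposite-strand genes share 113 and 99 of its exonic bases, 1.33% and 1.17% of its length, and the strand setting of the counting is not given. Its partners showed smaller differences: Col5a2 averaged 49.8 ± 31.4 CPM in Emb knockdown and 28.9 ± 29.6 CPM in WT, and Col5a3 averaged 34.0 ± 13.4 CPM in Emb knockdown and 31.6 ± 19.0 CPM in WT (SD, n = 4 each), with log2 fold changes of 0.79 and 0.11. Per exonic kilobase Col5a1 exceeded Col5a2 5.79- to 47.8-fold in Emb knockdown and 2.26- to 8.54-fold in WT.

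Col11a1 (ENSMUSG00000027966), the type XI counterpart of Col5a1, had 203, 61.5, 36.2 and 62.7 CPM in Emb knockdown, against 11.6, 8.05, 16.0 and 12.6 CPM in WT. The groups did not overlap, and Emb knockdown 1 stood far above its group. It had the lowest p of any collagen, with a log2 fold change of 2.90 ± 0.71 (95% interval 1.34 to 4.46; edgeR unadjusted p = 0.00171, adjusted p = 0.275) and 2.14 without Emb knockdown 1. The adjusted p was 0.00107 by DESeq2 and 0.0337 by edgeR without a filter, in a range of 0.00107 to 0.530 over the alternatives. WT libraries stood at 0.430 to 0.820 times the background and Emb knockdown libraries at 2.31 to 18.9 times. Col11a2, another type XI chain, went the other way with 1.33, 5.83, 7.57 and 6.89 CPM in Emb knockdown, against 23.2, 21.8, 26.6 and 5.62 CPM in WT. WT 4 lay among the Emb knockdown libraries, and the median was 0.889 times the background in Emb knockdown and 2.07 times in WT. Its log2 fold change was -1.82 ± 0.73 (edgeR unadjusted p = 0.0282, adjusted p = 0.326).

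The last branch, Col24a1 and Col27a1, was lower in mean level in Emb knockdown. Col24a1 (ENSMUSG00000028197) had 22.0, 20.7, 6.48 and 11.3 CPM in Emb knockdown, against 16.7, 460, 179 and 7.03 CPM in WT. WT 2 and WT 3 stood far above all others, while WT 1 and WT 4 lay within the Emb knockdown range. The log2 fold change was -3.45 ± 1.18 (edgeR unadjusted p = 0.0133, adjusted p = 0.308), and -2.09 without WT 2; the adjusted p was 0.0123 by DESeq2 and 0.0305 by edgeR without a filter, in a range of 0.0123 to 0.712. Col27a1 had 125, 218, 176 and 199 CPM in Emb knockdown, against 578, 266, 165 and 312 CPM in WT. WT 3 lay among the Emb knockdown libraries and the other WT libraries above them. Its log2 fold change was -0.88 ± 0.68 (edgeR adjusted p = 0.593), -0.40 without WT 1 and -0.24 with libraries scaled to the receptor genes. Col2a1, the cartilage collagen, averaged 26.8 ± 21.4 CPM in Emb knockdown and 43.2 ± 47.7 CPM in WT.

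**Figure D4:**
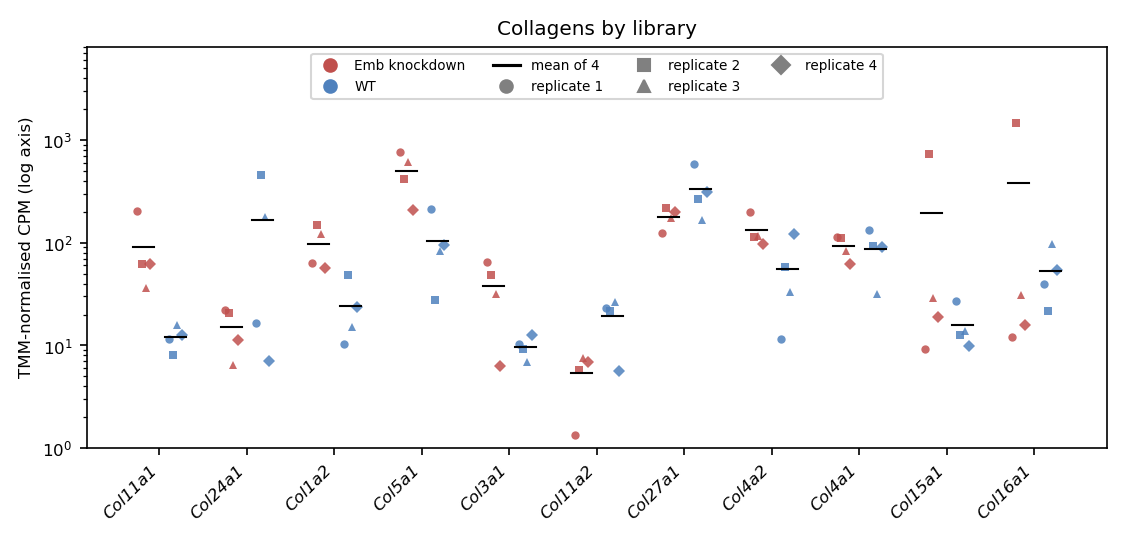
TMM-normalised CPM (log axis) of 11 collagens in each Emb knockdown (red) and WT (blue) library, with a marker shape per replicate number and a black bar at the mean of 4; fibrillar collagens stand left, then type IV, then the others. Col11a1 and Col1a2 do not overlap between genotypes, and Emb knockdown 2 alone sets the means of Col15a1 and Col16a1 (at 726 and 1472 CPM). WT 2 and WT 3 set the WT mean of Col24a1 (at 460 and 179 CPM).

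The 150 bases upstream of the RefSeq start are shown for Col11a1, Col5a1, Col3a1, Col24a1 and Col11a2, fibrillar members with an unadjusted p under 0.05, so that the starts of members with differences in both directions can be compared. Col1a2 is left out because its window overlaps an annotated exon of Col1a2. The windows shown were taken from RefSeq (GRCm38.p6) and overlap no annotated exon. Capitals mark a CCAAT box (CCAAT), a GC box (GGGCGG) or a TATA box (TATAAA) on either strand; these motifs occur in 24.5%, 28.6% and 7.57% of the 32851 promoter windows of that length.
Col11a1, chr3:114030390-114030539, plus strand: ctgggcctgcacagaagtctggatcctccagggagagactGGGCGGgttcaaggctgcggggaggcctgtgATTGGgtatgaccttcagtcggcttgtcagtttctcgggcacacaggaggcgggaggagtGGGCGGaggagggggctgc
Col5a1, chr2:27886275-27886424, plus strand: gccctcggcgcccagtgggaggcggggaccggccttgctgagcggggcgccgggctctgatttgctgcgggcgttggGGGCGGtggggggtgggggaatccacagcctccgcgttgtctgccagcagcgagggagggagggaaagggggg
Col3a1, chr1:45311388-45311537, plus strand: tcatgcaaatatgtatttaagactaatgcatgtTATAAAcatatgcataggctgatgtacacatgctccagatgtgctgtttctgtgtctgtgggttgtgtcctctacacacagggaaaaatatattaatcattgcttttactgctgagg
Col24a1, chr3:145292322-145292471, plus strand: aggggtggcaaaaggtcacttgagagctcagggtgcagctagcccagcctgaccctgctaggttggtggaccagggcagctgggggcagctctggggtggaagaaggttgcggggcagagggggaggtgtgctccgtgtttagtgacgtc
Col11a2, chr17:34038988-34039137, plus strand: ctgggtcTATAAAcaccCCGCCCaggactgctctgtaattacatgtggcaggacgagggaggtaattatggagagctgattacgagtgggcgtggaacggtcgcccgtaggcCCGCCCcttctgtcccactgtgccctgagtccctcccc
Col11a1 holds 2 GC boxes and a CCAAT box in reverse, Col5a1 a GC box and Col3a1 a TATA box that ends 112 bases before the start. Col11a2 holds a TATA box and 2 GC boxes in reverse, while the window of Col24a1 holds none of these letters. Among 38 promoter windows of 35 collagen genes, 19 hold a GC box, 8 a CCAAT box and 4 a TATA box. A match is a description of the letters and not a site.

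The type IV chains lie in head-to-head pairs that start close together on opposite strands. Col4a1 and Col4a2 make the network found in nearly all basement membranes and start 21 bases apart in GENCODE. Col4a2 (ENSMUSG00000031503) had 199, 114, 116 and 97.7 CPM in Emb knockdown, against 11.6, 57.5, 33.5 and 121 CPM in WT. WT 4 lay above 3 of the Emb knockdown libraries and the other WT libraries lay below all of them. Its log2 fold change was 1.24 ± 0.76 (edgeR adjusted p = 0.497), and 2.03 without WT 4. Col4a1 (ENSMUSG00000031502) had 114, 110, 82.1 and 62.0 CPM in Emb knockdown, against 134, 92.0, 32.0 and 89.9 CPM in WT, so the groups overlapped throughout. Its log2 fold change was 0.09 ± 0.64 (95% interval -1.31 to 1.48; edgeR adjusted p = 0.972) and -0.51 with library totals alone.

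Per exonic kilobase the ratio of Col4a1 to Col4a2 was 0.507, 0.858, 0.627 and 0.563 in Emb knockdown, against 10.2, 1.42, 0.846 and 0.660 in WT. WT 1, where Col4a2 had 9 counts and stood at 1.03 times the background, lay far above the rest, and WT 3 and WT 4 lay inside the Emb knockdown range. The chains share 22 exonic bases on opposite strands.

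The tissue-restricted type IV chains were low in WT, and all but Col4a4 were low in Emb knockdown. Col4a3 and Col4a4, which are part of the specialised network of the kidney filter and a few other sites, start 72 bases apart. The stretch between them is printed on the strand of Col4a4, with none of the motifs above, to show how little sequence separates the opposite starts.
Col4a4 to Col4a3, chr1:82586850-82586920, minus strand: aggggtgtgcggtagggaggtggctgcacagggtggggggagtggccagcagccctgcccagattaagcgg
The ratio of Col4a3 to Col4a4 per exonic kilobase was 0.189, 0.157, 0.403 and 2.79 in Emb knockdown, against 3.73, 0.197, 0.608 and 0.913 in WT. These ratios rest on few counts, with Col4a4 at 1.34 times the background in Emb knockdown 4 and 0.855 times in WT 1, and Col4a3 at 0.392 times in WT 2. Col4a4 stood higher in Emb knockdown 1 and 2, at 7.97 and 12.4 times, and its Emb knockdown median was 5.35 times. Col4a4 had 71.3, 126, 35.7 and 15.0 CPM in Emb knockdown and 15.4, 31.0, 37.3 and 39.4 CPM in WT, and Col4a3 had 12.7, 18.6, 13.5 and 39.5 CPM in Emb knockdown and 54.0, 5.75, 21.3 and 33.7 CPM in WT. The opposite-strand gene C430014B12Rik shares 563 exonic bases with Col4a3, 5.65% of its length. Both chains overlapped between genotypes, with log2 fold changes of 1.01 ± 0.71 and -0.44 ± 0.71 and edgeR adjusted p of 0.555 and 0.834. Col4a5 and Col4a6, the X-linked pair with starts 1309 bases apart, averaged 9.67 ± 1.82 and 10.04 ± 4.30 CPM in Emb knockdown and 23.1 ± 20.7 and 15.7 ± 10.4 CPM in WT. Their medians stood at 1.32 times the background each in Emb knockdown and at 1.73 and 1.43 times in WT.

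Among the other collagens, the multiplexins Col15a1 and Col18a1 of basement membrane zones were higher in mean level in Emb knockdown. Col15a1 (ENSMUSG00000028339) had 9.33, 726, 29.2 and 18.8 CPM in Emb knockdown, against 27.0, 12.6, 13.7 and 9.84 CPM in WT. Emb knockdown 2 stood far above all other libraries, which overlapped. The log2 fold change of 3.63 ± 1.34 (edgeR unadjusted p = 0.0200, adjusted p = 0.314) was 0.29 without Emb knockdown 2. EdgeR without a filter gave an adjusted p of 0.00549, in a range of 0.00549 to 0.898. Col18a1, the source of the fragment endostatin, had 50.6, 156, 19.5 and 40.7 CPM in Emb knockdown and 30.9, 13.8, 43.4 and 18.3 CPM in WT, with a log2 fold change of 1.32 ± 0.74 (edgeR adjusted p = 0.457).

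Col16a1 (ENSMUSG00000040690) belongs to the collagens with interrupted helices that sit on the surface of fibrils. It had 11.99, 1472, 30.8 and 15.7 CPM in Emb knockdown, against 39.9, 21.8, 97.4 and 54.8 CPM in WT. Emb knockdown 1 and 4 lay below every WT library, Emb knockdown 3 lay above WT 2 alone, and Emb knockdown 2 lay far above all others. The log2 fold change was 2.83 ± 1.47 (edgeR adjusted p = 0.422) and turned to -1.46 without Emb knockdown 2; edgeR without a filter gave an adjusted p of 0.0425, in a range of 0.0425 to 0.966. The same surface group holds Col12a1, with 49.1 ± 23.7 CPM in Emb knockdown and 60.9 ± 30.9 CPM in WT, and Col14a1, with 24.7 ± 6.96 CPM in Emb knockdown and 54.6 ± 54.9 CPM in WT (SD, n = 4 each). Of the 9 members of this group 8 were tested, 5 above 0 and 3 below, and 0 had an unadjusted p under 0.05.

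Type VI collagen, which forms beaded filaments around cells, has Col6a1, Col6a2 and Col6a3 as its classical chains. Col6a1 had 11.99, 61.0, 30.8 and 21.3 CPM in Emb knockdown, against 55.3, 205, 65.4 and 35.1 CPM in WT. Emb knockdown 2 was the only library of its group above the lower WT values. Col6a1 had a log2 fold change of -1.52 ± 0.76 (edgeR adjusted p = 0.409). Col6a2 averaged 15.4 ± 10.6 CPM in Emb knockdown and 6.87 ± 5.90 CPM in WT, and Col6a3 averaged 38.1 ± 13.7 CPM in Emb knockdown and 32.2 ± 17.1 CPM in WT, with log2 fold changes of 1.10 and 0.24. The ratio of Col6a1 to Col6a2 per exonic kilobase was 3.11, 21.9, 2.52 and 1.58 in Emb knockdown, against 40.9, 56.4, 8.17 and 23.8 in WT. Col6a2 lay at a median of 1.66 times the background in Emb knockdown and 0.394 times in WT, so the ratio rests on background-level counts of Col6a2 in WT. Of all 6 type VI genes, 2 lay above 0 and 4 below.

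The remaining members were low and mixed. Col7a1, of the anchoring fibrils beneath epithelia, had 67.3, 20.1, 55.1 and 62.0 CPM in Emb knockdown and 23.2, 106, 15.2 and 9.84 CPM in WT. The 4 membrane-spanning collagens had log2 fold changes of -0.75 (Col13a1), -0.52 (Col23a1), 0.32 (Col17a1) and 1.09 (Col25a1), and none had an unadjusted p under 0.05. Col13a1, which supports the neuromuscular junction, had 7.99, 23.9, 11.3 and 5.01 CPM in Emb knockdown and 18.01, 17.2, 18.3 and 28.1 CPM in WT. Col25a1, which motor nerves need to enter muscle, had 8.66, 53.5, 24.3 and 40.7 CPM in Emb knockdown and 12.9, 13.8, 8.37 and 25.3 CPM in WT. Both overlapped between genotypes. Col28a1, which is found around peripheral glia, stood at 202 CPM in WT 1 against 0 to 17.5 CPM in the other WT libraries and 6.89 to 25.3 CPM in Emb knockdown. The short-chain collagen Col8a1 averaged 25.2 CPM in Emb knockdown and 15.1 CPM in WT, and the growth-plate collagen Col10a1 was at or below 6.27 CPM in every library.

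Of the genes that make and handle collagen, lists of 5 roles were read in the same fit, and 0 genes of any list passed the adjusted p by edgeR. Of all genes tested, 8.64% were higher and 4.64% lower in Emb knockdown at an unadjusted p under 0.05, and with lists this short the counts below are given beside those shares as a description. Modification and folding had 16 of 20 genes tested, 2 higher and 2 lower at an unadjusted p under 0.05, with a median log2 fold change of 0.80. P4ha2, a prolyl hydroxylase subunit, had 36.0, 20.1, 37.8 and 58.9 CPM in Emb knockdown, against 10.3, 3.45, 8.37 and 18.3 CPM in WT (log2 fold change 1.92 ± 0.65, edgeR adjusted p = 0.308). The groups did not overlap in these CPM, but over library totals alone Emb knockdown 2 lay below WT 4. The lysyl hydroxylase Plod1 stood at 598 CPM in Emb knockdown 1 and at 9.54 to 42.0 CPM in the other Emb knockdown libraries, against 4.60 to 26.6 CPM in WT. Its relative Plod3 stood at 2514 CPM in WT 2 and at 0 to 28.1 CPM in the other WT libraries, against 1.62 to 28.8 CPM in Emb knockdown. P3h4, of a complex that modifies collagen before secretion, averaged 3.86 ± 1.71 CPM in Emb knockdown and 17.6 ± 17.6 CPM in WT.

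Cleavage and cross-linking had 11 of 16 genes tested, 0 higher and 1 lower, where the shares of all genes were 8.64% and 4.64%, with a median of 0.07. The lower one was Adamts14, a procollagen N-proteinase, at 14.7, 10.1, 20.5 and 25.7 CPM in Emb knockdown against 92.6, 52.9, 58.6 and 30.9 CPM in WT. The groups did not overlap in TMM-normalised CPM (log2 fold change -1.72 ± 0.59, edgeR adjusted p = 0.310). The enhancer of C-terminal cleavage Pcolce, the lysyl oxidase relative Loxl1 and the C-proteinase Bmp1 had log2 fold changes of -2.76, 2.09 and 1.21.

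Matrix proteins that bind collagen had 15 of 18 genes tested, 3 higher and 2 lower, against 8.64% and 4.64% of all genes, with a median of 0.62. Nid1, which ties laminin to type IV collagen, had 98.6, 240, 92.9 and 76.4 CPM in Emb knockdown, against 46.3, 33.3, 17.5 and 32.3 CPM in WT. Sparc, a secreted protein that binds collagen, averaged 304 ± 251 CPM in Emb knockdown and 65.9 ± 16.2 CPM in WT. Neither log2 fold change, 1.97 ± 0.66 and 2.21 ± 0.81, passed the adjusted p (edgeR, 0.308 and 0.313). Fibronectin, Fn1, averaged 19.5 ± 8.27 CPM in Emb knockdown and 57.0 ± 17.004 CPM in WT without overlap, and the matrix protein Thbs1 averaged 77.5 ± 28.3 CPM in Emb knockdown and 265 ± 154 CPM in WT, with log2 fold changes of -1.54 and -1.77.

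Collagen receptors had 13 of 15 genes tested, 6 higher and 0 lower, where the shares of all genes were 8.64% and 4.64%, with a median of 1.00, and their summed level of 726 to 1602 CPM in Emb knockdown did not overlap the 312 to 519 CPM of WT. With library totals alone 1 was higher and 1 lower, against 3.69% and 13.5% of all genes, and the sums, 529 to 901 CPM in Emb knockdown and 396 to 528 CPM in WT, were barely apart. The integrin chains Itga1 and Itga2, which pair with Itgb1 to bind collagen, averaged 147 ± 95.2, 42.8 ± 40.8 and 122 ± 94.3 CPM (Itga1, Itga2, Itgb1) in Emb knockdown and 50.1 ± 12.4, 8.22 ± 7.00 and 35.7 ± 11.1 CPM in WT. Mrc1, an endocytic collagen receptor of macrophages, had 709, 207, 349 and 301 CPM in Emb knockdown, against 29.6, 43.7, 28.1 and 70.3 CPM in WT (log2 fold change 3.19 ± 0.76, edgeR adjusted p = 0.275). Mrc1 is part of the receptor sums above, so the gap between those sums depends on it. The same gene is also counted among the macrophage markers below. Degradation had 10 of 18 genes tested, 2 higher and 0 lower, against 8.64% and 4.64% of all genes, with a median of 0.86. The higher ones, Ctsl and Mmp15, both overlapped between genotypes. Ctsl, a lysosomal cathepsin, stood at 438 CPM in Emb knockdown 1, and Mmp15 at 367 and 306 CPM in Emb knockdown 1 and 2 but 16.2 and 8.14 CPM in 3 and 4. The membrane metalloprotease Mmp14 averaged 3804 ± 2275 CPM in Emb knockdown and 1709 ± 1098 CPM in WT, with overlap (edgeR adjusted p = 0.486).

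Markers of other cells were read beside these values. The 6 macrophage markers summed to 3452 to 6344 CPM in Emb knockdown and 624 to 2501 CPM in WT without overlap, and 4 of the 6 were higher at an unadjusted p under 0.05, where 8.64% of all genes were; with library totals alone the sums overlapped, at 2400 to 4410 CPM in Emb knockdown and 859 to 2648 CPM in WT. Mrc1 belongs to both this list and that of the collagen receptors. The part of macrophage markers in the collagen, receptor and degradation values was not tested. Fibroblast markers, the usual company of fibrillar collagens, summed to 115 to 209 CPM in Emb knockdown and 164 to 240 CPM in WT, and 1 of 8, Pi16, stood above 2 times the background in every library. Only 3 of the 8 were tested, and they were mixed. Dcn had a log2 fold change of 1.04, and Pi16 and Pdgfra had -0.49 and -0.66. In Emb knockdown, smooth muscle markers summed to 39.4 to 67.3 CPM, pericyte markers to 78.3 to 161 CPM and mesothelial markers to 22.6 to 50.3 CPM, against 57.6 to 92.0, 66.9 to 253 and 39.1 to 74.5 CPM in WT. Endothelial markers summed to 181 to 1409 CPM in Emb knockdown and 361 to 2013 CPM in WT. Pecam1 held most of the highest sum in each genotype, at 1333 CPM in Emb knockdown 3 and 1947 CPM in WT 4. Its log2 fold change was -1.45, while 4 of the 5 tested endothelial markers lay above 0, with a median of 0.58. In Emb knockdown, neuron markers summed to 59.5 to 396 CPM, epithelial markers to 79.6 to 169 CPM and markers of interstitial cells of Cajal to 43.3 to 52.6 CPM, against 64.3 to 169, 58.6 to 129 and 36.0 to 64.7 CPM in WT. In TMM-normalised CPM, these ranges overlapped between genotypes except that of macrophage markers. With library totals alone, smooth muscle markers did not overlap, at 36.1 to 43.9 CPM in Emb knockdown and 58.7 to 94.4 CPM in WT. No list described here had a member at 0 in every library. In libraries of pooled cells, fewer cells of a type and less RNA per cell cannot be told apart.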

How the data were processed

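RNA was measured in 8 libraries of sorted colon cells, 4 of Emb knockdown and 4 of WT mice. The authors deposited whole-number counts per gene, not normalized. Adapter trimming with cutadapt and the build mm10 are named per the submitters' processing notes; which aligner, counter, strand setting and annotation were used is not stated in the sources here. Gene symbols came from the table, coordinates and exonic lengths from GENCODE M21 (GRCm38; 52133 of 55414 identifiers and all 44 collagens were found), and promoters from RefSeq GRCm38.p6. Total counts were 698930 to 2712754 per library, and reads amplified without molecular tags are not independent molecules, so precision from counts covers counting error only.

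Genes were tested on the whole table with edgeR 4.0.16 in R 4.3.3: default filterByExpr (at least 10 counts, at least 15 in total), TMM factors, robust quasi-likelihood fits with group as the only term, and Benjamini-Hochberg adjustment over 11353 genes with a threshold of 0.05. CPM values are counts divided by the TMM-scaled library size. Standard errors were computed from each fold change and its F statistic. Class sums, shares, chain ratios and levels over the receptor-gene background carry no test.

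Alternatives were DESeq2 1.42.0, limma 3.58.1 voom, no filter, library totals, scaling to receptor genes, thinning to 598240 counts outside ribosomal RNA, a replicate block and leaving out each library. The collagens, classes and lists were chosen with earlier results of these data known. Values in every library are given for up to 12 collagens by smallest unadjusted p under 0.05 and the 2 of each class with the highest mean CPM per exonic kilobase, and list genes are up to 4 by smallest unadjusted p or, for markers, up to 3 by mean CPM; some of these markers are not reported here. The other collagens printed, the level of 2 times the background and the removal of Col15a1 and Col16a1 were chosen after seeing the data.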

Additional observations from a re-analysis of the deposited data

Results flagged for a closer look

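In groups of 4 libraries, 26 of 186 gene and genotype combinations checked had a highest library far from the other 3, by the gap over the range with Dixon's 95% critical value. Chance gives about 1 in 20 for normally distributed values, a rate that was not computed for these right-skewed CPM. No group had a lowest library that stood apart. Of the 26, 12 were collagens.

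Among Emb knockdown libraries, Col15a1 stood at 725.79 CPM and Col16a1 at 1471.7 CPM in Emb knockdown 2, where the other 3 held 9.33 to 29.2 and 11.99 to 30.8 CPM, and Col12a1 at 84.296 CPM in the same library against 33.0 to 41.4. Col11a1 stood at 203.19 CPM in Emb knockdown 1, against 36.2 to 62.7. In Emb knockdown 4, Col14a1 stood at 35.085 CPM against 20.5 to 21.7 and Col20a1 at 28.193 CPM against 11.7 to 12.7.

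Among WT libraries, WT 1 held Col5a2 at 73.335 CPM, against 12.6 to 16.0 in the other 3, and Col28a1 at 201.99 CPM, against 0 to 17.5. WT 2 held Col7a1 at 105.76 CPM, against 9.84 to 23.2. WT 3 held Col2a1 at 114.11 CPM, against 10.3 to 24.4, and Col22a1 at 47.165 CPM, against 10.3 to 16.1. In WT 4, Col13a1 stood at 28.108 CPM against 17.2 to 18.3.

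Of the genes that handle collagen, Plod1 at 597.59 and Ctsl at 438.37 CPM stood apart in Emb knockdown 1, where the other 3 reached at most 42.0 and 84.8 CPM. Nid1 at 239.63 and Itgb1 at 261.9 CPM stood apart in Emb knockdown 2, where the others reached 98.6 and 86.6 CPM. P3h4 at 43.744, Sparc at 90.061 and Mmp15 at 69.476 CPM stood apart in WT 1, where the others reached 12.9, 60.4 and 8.05 CPM. Plod3 at 2514.0 CPM in WT 2 and Pcolce at 174.97 CPM in WT 3 stood above 28.1 and 18.4 CPM.

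Of the cell type markers, Cdh5 at 148.56 and Abcc9 at 72.617 CPM stood apart in Emb knockdown 1, Des at 20.676 CPM in Emb knockdown 2, Pecam1 at 1332.6 CPM in Emb knockdown 3 and Cspg4 at 179.89 CPM in WT 4. The highest of the other 3 libraries were 17.8, 12.4, 6.27, 197 and 16.7 CPM in the same order of genes.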

How the results depend on the processing

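The count of collagens past the adjusted p was 0 by edgeR, limma voom, library totals, receptor scaling, thinning, the replicate block and each omission of a library (0 to 0), and 4 with DESeq2 and 4 without a filter, where 683 and 910 of all genes passed against 0 in the edgeR test with the filter. DESeq2 gave no p for Col15a1, Col16a1 and Col28a1 and no adjusted p for Col19a1, Col6a2 and Col9a1, leaving 35 of 41 collagens and 8315 of 11353 genes with one. At an unadjusted p under 0.05 the 5 higher collagens became 2 with library totals alone, 10 with receptor scaling and 3 with the replicate block, and 4 to 7 without 1 library. The 2 lower became 1 with voom, 1 without a filter, 6 with library totals, 1 with receptor scaling and 0 with the replicate block, and 0 to 3 without 1 library (0 without WT 2, 1 without Emb knockdown 1, WT 1 or WT 3). The summed fibrillar log2 ratio of 0.52 moved to -0.12 with library totals and 1.18 with receptor scaling, and the type IV ratio of 0.44 to 1.11 with receptor scaling. Without 1 library each, the ratios were 0.21 to 0.77 for all collagens, 0.34 to 0.73 for fibrillar, 0.32 to 0.69 for type IV and -0.36 to 0.91 for the others, with the lowest values for all collagens and the others coming from the omission of Emb knockdown 2. The cause was not tested.

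Of 161 log2 fold changes of named collagens under alternatives that gave an adjusted p, 148 kept their direction and side of the adjusted p, 8 newly passed it and 5 changed direction with neither value past it. Those 5 were Col4a1 (-0.51 with library totals, -0.01 without Emb knockdown 1, -0.14 without WT 3) and Col16a1 (-0.71 with the replicate block, -1.46 without Emb knockdown 2). Deviations of libraries with the same number correlated weakly, at 0.0337, 0.0171, 0.0113 and 0.0194 for numbers 1 to 4. All of these lay above 0, while pairs with different numbers ran from -0.0406 to 0.0178. WT 2 correlated best with Emb knockdown 4 (0.0178) and WT 3 with Emb knockdown 2 (0.0121). Values this small do not settle whether the numbers pair libraries. The main fit did not pair them, and the replicate block is given as an alternative. The WT depth of 698930 to 954191 counts limits the members near background, where an absence of difference cannot be read.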
